A study of Mus musculus with 4 samples.

Results

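A set of 10 genes of natural killer cells, Ncr1, Klrg1, Klrd1, Klrk1, Klre1, Klra7, Il2rb, Eomes, Tbx21 and Xcl1, was followed in mouse tumours with and without an antibody against CD71. They were chosen by name, with earlier results of these data known, and all 10 were found among the 17574 genes of the files. Counts of these genes set beside shares of all genes are therefore a description, not independent support. Natural killer cells are innate lymphocytes that kill stressed or transformed cells when signals from activating receptors outweigh those from inhibitory receptors. Their development and survival depend on interleukin 15, which signals through the receptor subunit encoded by Il2rb, and on the T-box transcription factors Eomes and T-bet (Tbx21). In tumours they release granzymes and perforin, and the chemokine Xcl1, which attracts cross-presenting dendritic cells. Activated CD8 T cells also use several of these genes, Ncr1 being the most restricted to natural killer and related innate lymphoid cells.

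The tumours were grown from SCC7 cells, a murine head and neck squamous carcinoma line, injected under the skin of wild-type C3H/HeN mice. The treated mice received anti-CD71, an antibody against the transferrin receptor, on days 6 and 9. The control group carried the same tumours, and the labels do not name an agent given to it. All tumours were taken on day 10, and whole-tumour RNA gave 2 libraries a group, called control 1, control 2, treated 1 and treated 2 here after the replicate numbers of the labels. The labels do not say whether the libraries of a group came from separate mice, so p-values measure only the spread between these libraries.

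Values are TPM, a transcript abundance per length scaled to a fixed total, so the read depth behind each value is unknown. The complete files (both controls and treated 2) list 59881 transcripts each. The treated 1 file used here breaks off inside a line after 13586 complete entries, and a transcript it does not list was treated as missing, not as 0. Summed levels of markers of other cells differed between libraries. The summed TPM of the 46 skin genes found was 6.56 and 6.55 in the controls and 413.34 in treated 2, and over the 6 of them listed for all libraries it was 0.36, 1.47, 1.54 and 95.71. The 12 neutrophil genes found summed to 72.51, 90.12 and 583.95 TPM and the 12 macrophage genes to 7414.86, 9402.48 and 3946.49 TPM in control 1, control 2 and treated 2. Over the 2 neutrophil genes listed for all libraries the sums were 2.62, 1.44, 7.13 and 7.49 TPM, and over the 3 macrophage genes 419.51, 467.09, 295.93 and 285.87 TPM, in the order of both controls, treated 1 and treated 2. That neutrophil sum was nearly all Hdc (2.62, 1.32, 7.04 and 7.42 TPM), Ltf being at 0, 0.12, 0.09 and 0.07 TPM. S100a8 and S100a9, at 265.49 and 212.99 TPM, made up most of the neutrophil sum in treated 2. Over its listed transcripts S100a9 was at 3.67, 0, 142.39 and 183.5 TPM. Mmp9, at 59.62 TPM in treated 2, lay between the controls (51.94 and 76.33 TPM). Among the 9 squamous tumour genes, Krt5, Krt14 and Trp63 were near 0 in the controls. Krt5 was listed at 0 in both, Krt14 at 0.09 and 0.1 TPM and Trp63 at 0.18 and 0.32 TPM. In treated 2 these genes were at 31.4, 36.37 and 1.35 TPM. Epcam was also low, at 0.1, 0.2 and 1.3 TPM in control 1, control 2 and treated 2. Itgb4 (93.68, 87.43 and 76.46 TPM) and Sox2 (16.75, 15.18 and 17.06 TPM) were well above 0, in the same order. Krt8, a keratin of simple epithelia, was at 1132.27 to 1255.9 TPM in these 3 libraries. The part of this in the results below was not tested.

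Promoter sequence is shown for Ncr1, Klrk1 and Xcl1, which are tested genes whose windows hold the core letters of RUNX factors, used by natural killer cells and other cytotoxic lymphocytes. RefSeq windows of GRCm38.p6 matched 7 of the 10 genes, with 10 windows in all. Klrg1, Klrd1 and Il2rb, which are among the genes that fell in the results below, had no window and were not searched. The 250 bases upstream of each start were searched on both strands for the core letters of RUNX factors (TGTGGTT), T-box factors (GGTGTGA) and STAT5 (TTCNNNGAA). RUNX letters were in 5 of the 10 windows (2 overlapping windows of Ncr1, which share the site, and 1 each of Klrk1, Klre1 and Xcl1), T-box letters in 1 (Xcl1) and STAT5 letters in 1 (Klra7). Over 32851 windows of the same length, 4.4% held the RUNX letters, 3.33% the T-box letters and 7.02% the STAT5 letters. The sequences below run 5′ to 3′ on the gene's strand, with matches in capitals, and no 2 matches overlap. They come from the C57BL/6J reference, not from C3H/HeN mice.
Ncr1: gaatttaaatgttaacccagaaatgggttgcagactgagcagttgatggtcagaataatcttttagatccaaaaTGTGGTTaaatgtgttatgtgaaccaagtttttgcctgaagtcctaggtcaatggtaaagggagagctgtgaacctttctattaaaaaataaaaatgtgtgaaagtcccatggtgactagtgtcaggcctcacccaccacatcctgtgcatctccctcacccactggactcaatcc
Klrk1: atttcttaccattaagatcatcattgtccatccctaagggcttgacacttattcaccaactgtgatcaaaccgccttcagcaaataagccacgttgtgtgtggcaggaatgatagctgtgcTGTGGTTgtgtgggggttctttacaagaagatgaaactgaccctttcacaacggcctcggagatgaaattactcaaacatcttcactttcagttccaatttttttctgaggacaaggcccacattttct
Xcl1: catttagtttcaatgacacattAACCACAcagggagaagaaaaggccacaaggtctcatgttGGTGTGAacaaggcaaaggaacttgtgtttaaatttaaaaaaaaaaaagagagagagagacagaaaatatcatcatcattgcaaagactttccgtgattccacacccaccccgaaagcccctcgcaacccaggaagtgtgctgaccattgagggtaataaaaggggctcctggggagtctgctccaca
The Ncr1 window is chr7:4337465-4337714 on the plus strand, with the RUNX letters starting 176 bases upstream of the start. The Klrk1 window is chr6:129623865-129624114 on the minus strand, with RUNX letters 129 bases upstream. The Xcl1 window is chr1:164935523-164935772 on the minus strand, with T-box letters 188 bases upstream and RUNX letters, on the other strand, 228 bases upstream. These matches describe the letters only and show no binding.

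In treated 2 every one of the 10 genes lay below both controls, and 6 of them fell by limma: Il2rb, Klrg1, Ncr1, Klra7, Klrd1 and Klrk1. All 6 of the genes with a transcript listed for treated 1 also lay below both controls there, by less for 5 of the 6. In the background, 36.7% of 17026 genes lay below both controls in treated 2, and 24.4% of 8024 genes with listed transcripts lay below both controls in both treated libraries. Fold changes are log2 differences of TPM + 1, which understates the change of low genes, and a gene is called at a limma p adjusted over all tested genes (Benjamini-Hochberg) under 0.05, where tested means at least 1 TPM in 2 or more libraries. Limma called 2.39% of 11982 tested genes lower when treated 2 was set against both controls, and 0.476% higher. That comparison, named here the comparison of 3 libraries, assumes that the single treated library varies like the controls. It shares its controls and treated 2 with the comparison of 4 libraries, so the latter is no independent check. With 3 libraries the filter treats the groups unlike: 182 of the 11982 genes passed it through the controls alone. A gene that reaches 1 TPM in treated 2 alone, such as Krt5, cannot pass it. The shares called lower and higher there are therefore not like for like. With 4 libraries 1563 genes could be tested, of which 3.45% were called lower and 0.832% higher (54 and 13 genes, or 36 and 21 with median scaling). Over 4 libraries neither Ncr1 nor Klrg1, the only genes of the 10 that could be tested, passed (both had an unadjusted limma p under 0.05, as did 416 of the 1563). The calls over 3 libraries, and the shares of all genes called lower and higher there, depended on the filter and on limma's settings, as given below. In whole-tumour RNA, fewer natural killer cells and less of these transcripts per cell cannot be told apart.

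**Figure D1:**
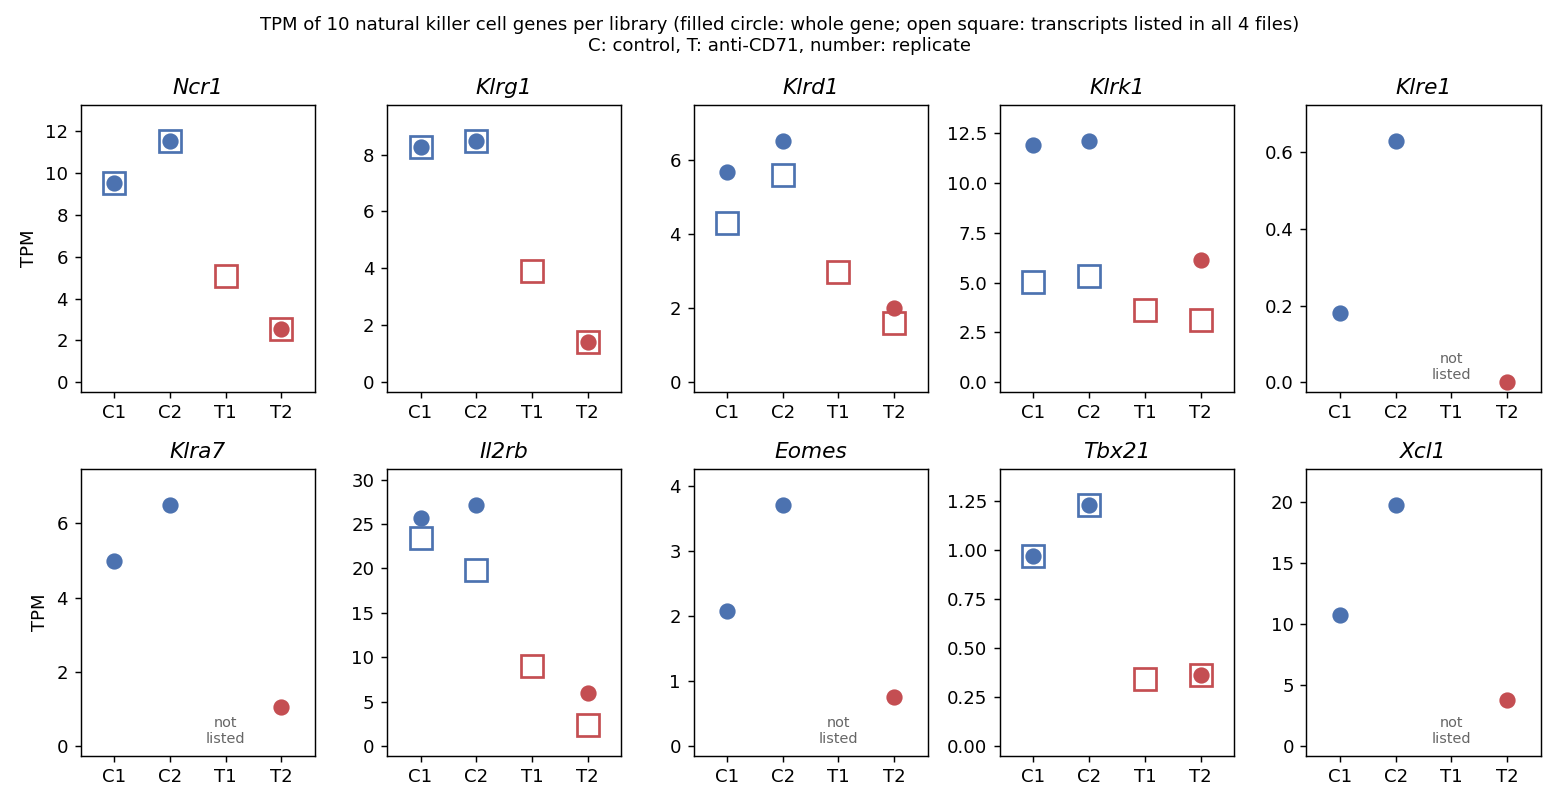
TPM (vertical axes, linear) of each of the 10 genes in control (C1, C2, blue) and anti-CD71 (T1, T2, red) libraries; filled circles are the whole gene and open squares the transcripts listed in all 4 files. Every red symbol lies below the blue symbols of its own kind, and Klre1, Klra7, Eomes and Xcl1 have no listed transcript in T1.

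The activating receptors NKp46 and NKG2D come first. Ncr1 encodes NKp46, an activating receptor that marks natural killer cells (gene 17086, chromosome 7 from 4337715 to 4345184 in GRCm38.p6). Its TPM were 9.53 and 11.54 in the controls, 5.1 in treated 1 and 2.52 in treated 2, and all its transcripts were listed. Both anti-CD71 values were thus below both controls, treated 2 lying at 23.9% and treated 1 at 48.4% of the control mean. Over 3 libraries Ncr1 fell (log2 change -1.71, SE 0.16, limma adjusted p = 0.0244), and over 4 it did not pass (10.54 ± 1.42 against 3.81 ± 1.82 TPM, SD, n = 2 each, log2 change -1.31, SE 0.27, limma adjusted p = 0.0554). Its isoforms went different ways in treated 1. The transcript NM_010746 was at 8.09, 9.71, 2.91 and 2.52 TPM in the 2 controls and the 2 treated libraries, and NM_001368364 at 1.44, 1.83, 2.19 and 0. The smaller isoform was therefore highest in one treated library and listed at 0 in the other.

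Klrk1 encodes NKG2D, the activating receptor for stress-induced ligands such as those of the Raet1 family (gene 27007, chromosome 6 from 129610323 to 129623903). It had the smallest fall of the 6 called genes, from 11.92 and 12.11 TPM in the controls to 6.15 TPM in treated 2, or 51.2% of the control mean (log2 change -0.86, SE 0.11, limma adjusted p = 0.0354). A single transcript, with 44.53% of the gene's TPM, appears in all files, at 5.02 and 5.32 TPM in the controls and 3.61 and 3.1 TPM in treated 1 and treated 2. These treated values lay close together, and both were below the controls. Tested over 4 libraries on that transcript alone, Klrk1 did not pass (log2 change -0.50, limma adjusted p = 0.23). Among NKG2D ligands, Raet1d was at 24.74 and 27.79 TPM in the controls and 18.33 and 22.46 TPM in treated tumours. Over 4 libraries it did not pass (log2 change -0.35, limma adjusted p = 0.149). In control 1, control 2 and treated 2, Ulbp1 was at 37.73, 28.01 and 27.39 TPM (log2 change -0.24). Raet1e went the other way in treated 2, at 1.82, 2.06 and 2.4 TPM, and did not pass (log2 change 0.21, limma adjusted p = 0.532). Its listed transcripts, with 89.49% of its TPM, were at 1.53 and 2.06 TPM in the controls. In treated 1 they were at 1.36 TPM, below both controls, and in treated 2 at 2.03 TPM. The listed Ulbp1 transcripts, with 67.08% of its TPM, were at 25.52 and 19.04 TPM in the controls. They were at 15.76 and 17.91 TPM in treated 1 and treated 2. Hcst, which encodes DAP10, a signalling partner of NKG2D, was at 6.94, 9.7 and 4.43 TPM in the 3 complete libraries and did not pass (log2 change -0.76, limma adjusted p = 0.115).

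Klrd1 encodes CD94, which pairs with NKG2 proteins to read the class I molecule Qa-1 (gene 16643, chromosome 6 from 129588092 to 129598775). It fell from 5.69 and 6.53 TPM to 2.02 TPM in treated 2 (log2 change -1.23, SE 0.16, limma adjusted p = 0.0355). Transcripts with 80.83% of its TPM were listed in all files, at 4.31 and 5.6 TPM in the controls, 2.99 TPM in treated 1 and 1.6 TPM in treated 2, with no overlap between groups, and on these transcripts it did not pass over 4 libraries (log2 change -0.88, limma adjusted p = 0.222). Its partner Klrc1, which encodes the inhibitory chain NKG2A, was at 4.1, 5.48 and 1.57 TPM in the complete libraries and did not pass (log2 change -1.16, SE 0.21, limma adjusted p = 0.0591). H2-T23, which encodes Qa-1, fell from 217.53 and 248.84 TPM in the controls to 146.42 TPM in treated 2 (log2 change -0.66, limma adjusted p = 0.0478).

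Klrg1 encodes an inhibitory receptor for cadherins that marks mature natural killer and effector T cells (gene 50928, chromosome 6 from 122270596 to 122282833). Its single transcript was at 8.28 and 8.48 TPM in the controls, 3.89 TPM in treated 1 and 1.41 TPM in treated 2. The controls nearly coincided, and the treated libraries lay at 46.4% and 16.8% of their mean. Klrg1 fell over 3 libraries (log2 change -1.96, SE 0.14, limma adjusted p = 0.0117) and did not pass over 4 (log2 change -1.45, SE 0.32, limma adjusted p = 0.0679). Leaving out treated 2 and keeping treated 1 gave a log2 change of -0.94 with a limma adjusted p = 0.0332, against -1.96 and 0.00589 with treated 2 alone (1550 and 1556 genes tested). Cdh1, the E-cadherin ligand of this receptor, was at 2.15, 1.79 and 2.46 TPM in the complete libraries (log2 change 0.22, limma adjusted p = 0.521).

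Klra7 encodes Ly49G, an inhibitory receptor for class I molecules (gene 16638, chromosome 6 from 130218605 to 130233322). Ly49 genes are near-identical to one another and differ in number and sequence between inbred strains, so the split of reads among them is uncertain. Summed over its 5 transcripts, Klra7 fell from 4.99 and 6.5 TPM to 1.05 TPM in treated 2 (log2 change -1.71, SE 0.20, limma adjusted p = 0.0305), and no transcript was listed for treated 1. Most of this signal was not on the transcripts of the primary locus. The 3 entries that the files mark as further copies held 95.0% and 90.2% of the TPM in the controls and 96.2% in treated 2, and the 2 transcripts of the primary locus summed to 0.25, 0.64 and 0.04 TPM. On the primary locus alone Klra7 was too low to be tested. The related Klra3 was at 2.5 and 2.43 TPM in the controls and 1.11 and 0.67 TPM in the treated libraries and did not pass over 4 libraries (log2 change -0.88, limma adjusted p = 0.0554) or over 3 (log2 change -1.05, limma adjusted p = 0.0658).

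Klre1 encodes a lectin-like receptor of natural killer cells (gene 243655, chromosome 6 from 129559365 to 129585828). It was at 0.18 and 0.63 TPM in the controls and listed at 0 in treated 2, and it was too low to be tested. Klre1, Klrd1 and Klrk1 lie close together on chromosome 6, yet in the controls Klrk1 stood at the 53.0 and 52.9 percentile of expressed genes and Klre1 at the 20.4 and 26.7 percentile.

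Il2rb, the receptor subunit shared by interleukins 2 and 15, was the highest of the 10 genes in both controls (gene 16185, chromosome 15 from 78479256 to 78511621). It fell from 25.72 and 27.16 TPM to 6.0 TPM in treated 2, or 22.7% of the control mean (log2 change -1.97, SE 0.10, limma adjusted p = 0.00567). Counted from the lowest of 11982 log2 changes it ranked at 18, next to Klrg1 at 19. The order of the 2 depends on the pseudocount, Klrg1 having the larger fall at 0.5 TPM (-2.22 against -2.05) and at 0.1 TPM (-2.49 against -2.12). Transcripts with 77.7% of its TPM were listed in all files, at 23.47 and 19.87 TPM in the controls, 9.04 TPM in treated 1 and 2.41 TPM in treated 2. The groups did not overlap, and the treated libraries differed from each other by 1.56 on the log2 scale, against 0.23 between the controls.

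The Il2rb isoforms did not all follow that order. NM_008368 was at 11.36 and 10.62 TPM in the controls and 5.8 and 1.35 TPM in treated 1 and treated 2. The predicted transcript XM_006520479 was at 9.74 and 9.0 TPM in the controls and listed at 0 in both treated libraries. XM_006520480, another predicted transcript, was at 2.37 and 0 TPM in the controls and 3.24 and 1.06 TPM in treated libraries, so its groups overlapped. How the unknown quantifier shared reads among isoforms bears on each of these values. Of the other parts of this receptor, Il2rg, the common gamma chain, was at 82.07, 97.7 and 55.88 TPM and did not pass (log2 change -0.67, limma adjusted p = 0.0629). The ligand gene Il15 was at 15.37, 14.49 and 14.77 TPM (log2 change -0.01, limma adjusted p = 0.947) and Il15ra, which presents it, at 17.76, 15.62 and 16.7 TPM. In treated 2, where Il2rb fell, the Il15 value lay within the range of the controls. Listed transcripts with 21.82% of the Il15 TPM were at 3.18 and 3.02 TPM in the controls. In treated 1 and treated 2 they were at 5.12 and 3.54 TPM, above both controls.

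The T-box factors had low values. Eomes, which directs natural killer cell maturation (gene 13813, chromosome 9 from 118478186 to 118486132), was at 2.07 and 3.71 TPM in the controls and 0.75 TPM in treated 2, and it did not pass (log2 change -1.12, SE 0.31, limma adjusted p = 0.116). Tbx21 (gene 57765, chromosome 11 from 97098007 to 97115331) was at 0.97 and 1.23 TPM in the controls and at 0.34 and 0.36 TPM in treated 1 and treated 2. It missed the filter of 1 TPM in 2 libraries. With a filter of 1 TPM in 1 library its log2 change over 4 libraries was -0.63 (SE 0.24, limma adjusted p = 0.196). Of the 6 genes with a listed transcript, Tbx21 alone was no higher in treated 1 than in treated 2. Both factors therefore lay below the controls in every treated library that lists them, with no call.

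Xcl1, the chemokine that binds Xcr1 on cross-presenting dendritic cells (gene 16963, chromosome 1 from 164931644 to 164935522), had the widest control spread in TPM, at 10.71 and 19.76, and stood at 3.77 TPM in treated 2. Its log2 change of -1.71 equalled those of Ncr1 and Klra7 to 2 decimals, yet with an SE of 0.34 it did not pass (limma adjusted p = 0.071). Its receptor gene Xcr1 was at 1.26, 1.92 and 0.81 TPM and did not pass (log2 change -0.51, limma adjusted p = 0.296).

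**Figure D2:**
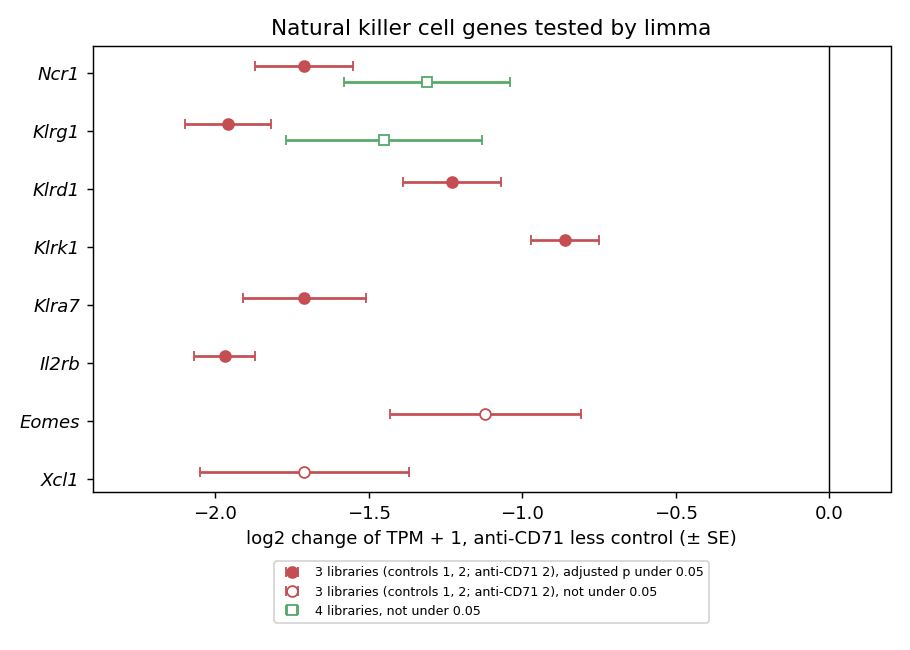
Log2 change of TPM + 1 (horizontal axis, anti-CD71 less control, bars are ± SE of limma) for the genes that passed the filter, with 3 libraries (circles) and 4 libraries (squares); filled symbols had an adjusted p under 0.05. Il2rb and Klrg1 lie lowest at -1.97 and -1.96, and Klrk1 is nearest to 0 at -0.86.

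Over the 8 of the 10 genes that passed the filter the log2 changes ran from -1.97 to -0.86 with a median of -1.71, against a median of -0.01 over all genes tested. The filter left out Klre1 and Tbx21, and Eomes passed it through the controls alone, so the median is no support for a difference. The count of 6 rested on the filter and on the variance prior: it was 0 of 10 with no filter (limma called 0 of 17026 genes there, with 3401 at an unadjusted p under 0.05), 1 of 9 with a filter of 1 TPM in 1 library (Il2rb, with 0.0963% of all genes called lower and 0.482% called higher, or 12 and 60 genes) and 2 of 8 without the intensity trend (Il2rb and Klrg1, with 0.184% of all genes called lower). With TPM rescaled after leaving out the skin genes it was 6 of 8, with 2.65% of all genes called lower. Over the 1563 genes tested with 4 libraries, log2 differences between the controls had an SD of 0.222 and those between the treated libraries one of 0.294. For Ncr1 and Klrg1 the treated libraries differed by 0.79 and 1.02 (log2). The SE over 3 libraries, moderated over all genes tested, holds no spread between treated libraries. It was 0.16 and 0.14 for these 2 genes, against 0.27 and 0.32 over 4 libraries.

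The order of the levels in the controls was Il2rb, then Xcl1, Klrk1, Ncr1 and Klrg1, then Klrd1 and Klra7, and last Eomes, Tbx21 and Klre1, by mean TPM from 26.44 to 0.4. Among neighbours in this order, Xcl1 (15.24 ± 6.4 TPM, SD, n = 2) and Klrk1 (12.02 ± 0.13 TPM) differed by less than the larger of their SDs. So did Klrd1 (6.11 ± 0.59 TPM) and Klra7 (5.74 ± 1.07 TPM), and the other pairs differed by more. In treated 2 Klrk1 (6.15 TPM) and Il2rb (6.0 TPM) were at nearly the same level.

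The other genes of the natural killer cell programme are given by list, beside the 2.39% of all tested genes called lower in treated 2 and the 51.4% with a log2 change below 0. Of 34 other receptors and surface molecules listed, 15 were tested. In 9 of these 15, Cd96 among them, treated 2 was under 1 TPM, so that they passed the filter through the controls alone and their low values are no support for a difference. The single gene called was Cd96, a receptor for the adhesion molecule CD155 (3.63 and 4.02 TPM in the controls, 0.55 TPM in treated 2, log2 change -1.64, limma adjusted p = 0.029). Over 4 libraries Cd96 was at 3.63, 3.85, 1.53 and 0.55 TPM over its listed transcripts and did not pass (log2 change -1.26, limma adjusted p = 0.0554). Tnfsf10, the death ligand TRAIL, went another way in treated 1, at 2.97 and 3.17 TPM in the controls and 6.01 and 2.81 TPM in the treated libraries (log2 change over 4 libraries 0.35, limma adjusted p = 0.482).

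Of 15 adaptor and signalling genes all were tested, 4 of them passing the filter through the controls alone, and 6 fell, with a median log2 change of -0.78. Tyrobp, which encodes DAP12, the adaptor of activating Ly49 receptors, fell from 513.78 and 584.43 TPM to 292.77 TPM (-0.90), Fcer1g, an adaptor of NKp46, from 277.11 and 320.02 to 173.19 TPM (-0.78), and Lcp2 (-0.95) and the phosphatase gene Ptpn6 (-0.87) fell as well. Myeloid cells also express these adaptors, and 8 of 12 macrophage genes fell in the same library, with a median log2 change of -0.83. Vav1, a signalling protein of many blood cells, was the one adaptor gene tested over 4 libraries, and it fell (log2 change -0.63, SE 0.11, limma adjusted p = 0.0442) from 20.82 and 22.81 TPM to 14.9 and 12.72 TPM over its listed transcripts. In the same comparison 2 of 3 tested macrophage genes fell, Csf1r, the receptor gene for the growth factor CSF1 (log2 change -1.03, limma adjusted p = 0.032), and Cd14 (log2 change -0.44, limma adjusted p = 0.0388), and their part in the Vav1 result was not tested. Limma called 0 of all genes lower without control 1 or without control 2 (270 and 171 at an unadjusted p under 0.05), so that this call needs both controls.

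Among 14 tested transcription factors, 5 fell, with a median log2 change of -0.37. They included Klf2 (-1.29), which controls lymphocyte trafficking, Runx3 (-1.08), a factor of cytotoxic lymphocytes, and Nfil3 (-0.64), which is needed for natural killer cell development and did not pass over 4 libraries (-0.49, limma adjusted p = 0.0683). Runx3 went from 6.7 and 7.3 TPM to 2.77 TPM, and over its listed transcripts, with 58.26% of its TPM, it was at 3.87 and 4.58 TPM in the controls and 0.62 and 1.32 TPM in treated 1 and treated 2. Of 13 tested JAK-STAT genes 0 were called by limma (7 at an unadjusted p under 0.05), with a median log2 change of -0.30, and of 12 tested cytokine and cytokine receptor genes 1 fell, Il21r (-0.99). Homing genes fell in 4 of 13 cases, led by the chemokine receptor gene Cx3cr1 (-2.14) and the integrin gene Itgal (-1.27). Of 14 tested ligand genes 4 fell, among them Cd48 (-0.74) beside H2-T23, and Ccl5 (-0.82) and Irf8 (-0.80) were the 2 called of 11 genes of the Xcl1 axis.

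**Figure D3:**
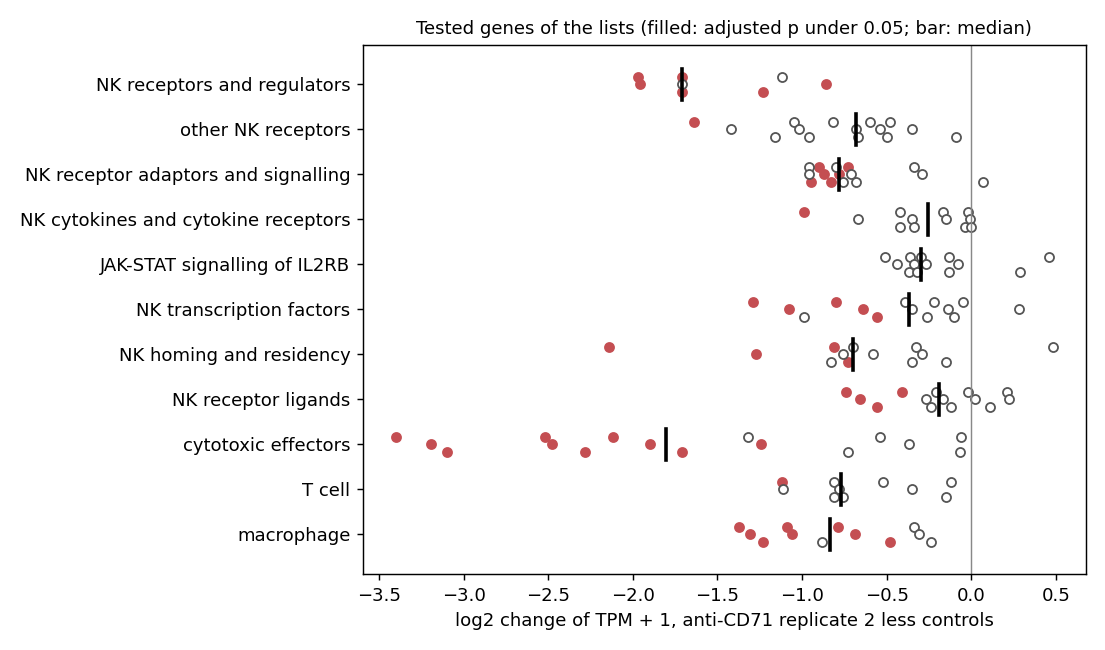
Log2 change of TPM + 1 in treated 2 less the controls (horizontal axis) for each tested gene of 11 gene lists; filled points had an adjusted p under 0.05, open points did not, and the black bar is the list's median. The 8 tested receptor and regulator genes have a median of -1.71, the cytotoxic effectors -1.80, and the T cell and macrophage lists -0.77 and -0.83. The lists lie at unlike TPM levels, and TPM + 1 understates the change of low genes, so these medians are not like for like.

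Killer cell effector genes and T cell genes stood beside them as follows. Of 16 tested cytotoxic effectors 10 fell, with a median log2 change of -1.80, for example Gzma from 54.52 and 57.65 TPM to 10.78 TPM (-2.28) and Prf1, which encodes perforin, from 53.14 and 50.67 TPM to 11.16 TPM (-2.12). Over 4 libraries limma called 0 of the 3 effectors that could be tested (1 at an unadjusted p under 0.05): Gzmg, at 357.24, 366.26, 190.16 and 33.35 TPM (log2 change -2.16, adjusted p = 0.148), Gzmb, at 100.74, 84.83, 79.54 and 27.62 TPM (-0.96, adjusted p = 0.241), and Srgn (-0.07, adjusted p = 0.554). Of 10 tested T cell genes, 6 of which passed the filter through the controls alone, 1 fell, Cd3g (5.87 and 5.21 TPM in the controls, 2.0 TPM in treated 2, log2 change -1.12, limma adjusted p = 0.0411), and the median was -0.77. With treated 1 at 3.23 TPM, Cd3g did not pass over 4 libraries (log2 change -0.87, limma adjusted p = 0.0651). Cd3e, with the smallest change of the 10, was at 1.25, 1.29 and 1.09 TPM (log2 change -0.12, limma adjusted p = 0.77). All 10 log2 changes lay below 0, from -1.12 to -0.12. In the same order, Cd8a was at 1.19, 1.6 and 0.41 TPM (log2 change -0.76, limma adjusted p = 0.157). Cd4 was at 1.21, 1.04 and 0.91 TPM (log2 change -0.15, limma adjusted p = 0.718). Both passed the filter through the controls alone. Cd8b1, at 0.66, 1.21 and 0.19 TPM, was too low to be tested. The summed TPM of the 17 T cell genes was 28.64 and 31.97 in controls and 13.59 in treated 2, and that of the 10 natural killer cell genes 80.06, 97.65 and 24.03. No test was made of the difference between these lists, and 0 of the 8 B cell genes passed the filter. The list medians are not like for like, as TPM + 1 understates the change of low genes, such as most of the T cell genes.

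Genes with a pattern close to that of the 8 tested genes were sought over the 3 complete libraries, as the Euclidean distance between log2 values less the control mean, among 12090 other genes averaging at least 1 TPM. The nearest were Avil (distance 0.067), Spon2 (0.097), Cd96 (0.097), Cd83 (0.127) and Hba-a1 (0.173). The median profile was -0.11 and 0.11 in the controls and -1.71 in treated 2. Spon2, for example, was at 33.77, 40.02 and 11.35 TPM and the alpha globin gene Hba-a1 at 1886.18, 2114.06 and 542.59 TPM. With 3 libraries this likeness is mostly the size of 1 difference, and it is given as a description.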

How the data were processed

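RNA of whole tumours was sequenced in 4 libraries, with extraction by TRIZOL and library preparation by BGI, per the labels' protocols. The authors deposited TPM per RefSeq transcript, on the build GRCm38.p6 that the submitters' processing notes name. Neither aligner nor quantifier is given in the sources used here. Such values keep no read depth, so no counting interval is given. A GRCm38.p6 table of RefSeq genes named 58425 of 59881 transcripts, and TPM were summed to 17574 genes, the 1744 entries marked as further copies of a transcript being added to its gene.

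Genes reaching 1 TPM in 2 libraries or more were tested on log2(TPM + 1) with limma 3.58.1 in R 4.3.3, using an intensity trend in its prior and Benjamini-Hochberg adjustment over all genes tested, and were called at an adjusted p under 0.05. This scale understates the change of low genes. A gene entered the comparison of 4 libraries where transcripts listed in all files carried at least 90% of its TPM. The script was tested on simulated data in which every gene and library had the same spread, so that test does not measure error rates in these data.

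The 10 genes and the gene lists were chosen with earlier results of these data known. Named genes were the 10, up to 4 called genes a list with the largest change, 12 fixed partners, and the 5 genes nearest in pattern. Raet1d, Raet1e, Ulbp1, Il15ra, Klra3, Tnfsf10, Csf1r, Cd14, Gzmb, Gzmg and Srgn were added after their values were seen. So were Krt5, Krt8, Krt14, Trp63, Epcam, Itgb4, Sox2, Mmp9, Ltf, Cd4, Cd8a and Cd8b1. Alternatives were other pseudocounts and filters, median scaling, no trend, a replicate block, any listed transcript, left-out libraries, rescaling without skin genes and, added after the data were seen, the primary locus alone.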

Additional observations from a re-analysis of the deposited data

How the results depend on the processing

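Of 47 recomputed log2 changes with a test for the 6 genes called over 3 libraries, 15 lost the call. Of 40 for results not called, 3 gained one. Another 16 recomputed values have no test, and 0 of all these changed direction. Over 3 libraries the number of the 10 genes called was 6, and it was 0 with no filter on low values, 1 with a filter of 1 TPM in 1 library and 2 without the intensity trend. It was 6 with a pseudocount of 0.1 TPM (2.08% of all genes called lower) or 0.5 TPM (2.22%), with median scaling (1.56%) and without the skin genes (2.65%), and 5 of 7 on the primary locus alone (2.55%), where Klra7 was not tested. The Il2rb log2 change ran from -2.12 to -1.93 over its alternatives, that of Eomes from -1.76 to -0.81 and that of Xcl1 from -2.12 to -1.3. Leaving out a control from these 3 libraries gives values with no test. Over 4 libraries 0 genes were called (416 of all 1563 had an unadjusted p under 0.05), with a range of 0 to 2 when each library was left out in turn: 0 without either control, 2 without treated 1 and 1 without treated 2, with 0%, 3.92% and 1.42% of all genes called lower. In the fits with 1 library in a group, the lone library is assumed to vary like the other group. With any listed transcript 5 genes could be tested and 0 were called (0.0426% of 4699 genes were called lower), Il2rb at a log2 change of -1.95 (limma adjusted p = 0.18). With the replicate number as a block, 0 of the 10 genes were called (Ncr1 limma adjusted p = 0.111, Klrg1 0.104), and 3 of all 1563 genes against 67 without it. The labels do not say that a number marks a shared mouse or day, and the deviations of same-numbered libraries had a Pearson correlation of -0.0055 across genes, which are not independent replicates. Why the filter and the trend move the calls was not tested. TPM gives no depth, so how far depth limits the low values of Klre1, Tbx21 and Eomes is unknown.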
